A study of Mus musculus with 9 samples.

Results

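The 10 genes described here encode the machinery that carries a cell from G1 into S phase. They are the D cyclins Ccnd1, Ccnd2 and Ccnd3, their kinases Cdk4 and Cdk6, the E cyclins Ccne1 and Ccne2, their kinase Cdk2, the retinoblastoma gene Rb1 and the transcription factor E2f1. They were taken by gene symbol, as members of a pathway, and all 10 were found among the 56953 genes of the deposited table. The measure is TPM (transcripts per 1000000 transcripts), an abundance per transcript length, so levels of different genes can be set beside each other.

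In the classical scheme D cyclins activate CDK4 and CDK6, which begin to phosphorylate the retinoblastoma protein. That protein otherwise holds E2F transcription factors inactive. Freed E2F raises transcription of the E cyclins and of DNA replication genes, and cyclin E with CDK2 completes the phosphorylation and commits the cell to S phase. Fibroblasts of the adult heart are mostly out of cycle and divide after injury or in serum-containing culture.

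The libraries were polyA RNA sequencing of primary cardiac fibroblasts from hearts of adult male wildtype C57BL/6N mice, with cardiomyocytes removed by settling and the attached cells grown in serum. Every culture received an adenovirus at 1000000 pfu/ml and was harvested 72 h later in serum-containing medium. There were 3 libraries of Ad-JP2 (virus for junctophilin-2, a protein that holds endoplasmic reticulum close to the cell surface membrane), 3 of Ad-shJP2 (virus for a hairpin against it) and 3 of Ad-GFP (virus for green fluorescent protein, the control). No group was free of virus. Nothing in the labels tells if replicates came from separate cultures or hearts, and the p-values then cover only the spread between these libraries, which may be technical.

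Jph2, the targeted gene, was at 737, 691 and 637 TPM in the Ad-JP2 libraries, 117, 123 and 119 TPM in the Ad-shJP2 libraries and 132, 128 and 128 TPM in the Ad-GFP libraries. It rose 5.32-fold with Ad-JP2 (log2 fold change 2.40, limma adjusted p = 3.07e-08). In the libraries labelled Ad-shJP2 it averaged 7.58% less than in Ad-GFP, which did not pass the test (adjusted p = 0.0724, limma), so these data show no called loss of the target RNA there. Directions below therefore refer to the libraries labelled Ad-shJP2. Estimated depth was 36.9 to 41.4 M reads in Ad-JP2, 21.3 to 33.2 M in Ad-shJP2 and 40.5 to 45.8 M in Ad-GFP. Summed TPM of 10 fibroblast markers was 4307 to 4457 in Ad-JP2, 2564 to 2630.4 in Ad-shJP2 and 4160.1 to 4219 in Ad-GFP, and that of 12 macrophage and leukocyte markers was 3090.1 to 3145 in Ad-JP2, 3901 to 3956 in Ad-shJP2 and 3362 to 3402 in Ad-GFP. RNA of macrophage and leukocyte markers was thus abundant in all groups beside that of fibroblast markers, whatever the fibroblast label. Cardiomyocyte markers summed to at most 45.6 TPM, endothelial markers to at most 49.8 TPM, epicardial and mesothelial markers to at most 44.1 TPM, and pericyte and smooth muscle markers to at most 15.1 TPM in any library.

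With the libraries labelled Ad-shJP2 the G1 to S genes split into a group that rose and a group that fell. Ccne1, Cdk2, Ccne2, E2f1, Ccnd3 and Cdk4 rose against Ad-GFP, and Ccnd2, Cdk6, Ccnd1 and Rb1 fell. A call here means an adjusted p under 0.05 from limma's moderated test on log2(TPM + 1), adjusted over the 14215 genes tested. All 10 genes were called, 6 higher and 4 lower, where 59.4% of all genes tested were called, 21.8% higher and 37.7% lower. Values of the groups did not overlap for any of the 10, against 65.3% of all genes tested. With Ad-JP2, 4 of the 10 rose against Ad-GFP (Ccne2, Rb1, Ccnd2 and Cdk6) and 0 fell, where 15% of all genes were called, 13.4% higher and 1.64% lower. The count of genes lower at an unadjusted p under 0.05 was also 0 in limma. Ccne2 and Rb1 met the filter of at least 1 TPM in at least 3 libraries mainly through libraries where they were high. With a filter of at least 5 TPM in at least 3 libraries they were not tested. Under it 2 of the 10 were called higher with Ad-JP2, beside 1400 higher and 221 lower of 10352 genes tested. The medians over the 10 log2 fold changes were 0.47 for Ad-shJP2 and 0.05 for Ad-JP2, against -0.11 and 0.01 over all genes tested. The split of calls over all genes depends on the scaling: 3093 were higher and 5353 lower with Ad-shJP2, against 4233 and 3849 after quantile normalization, and 1902 were higher and 233 lower with Ad-JP2, against 1462 and 748. The counts for the 10 genes were the same after quantile normalization. They became 6 higher and 3 lower with Ad-shJP2 and 5 higher with Ad-JP2 after a correction for GC content and transcript length. Over all genes, that correction gave 2546 of 14025 higher and 5728 lower with Ad-shJP2, and 2230 higher and 470 lower with Ad-JP2.

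**Figure D1:**
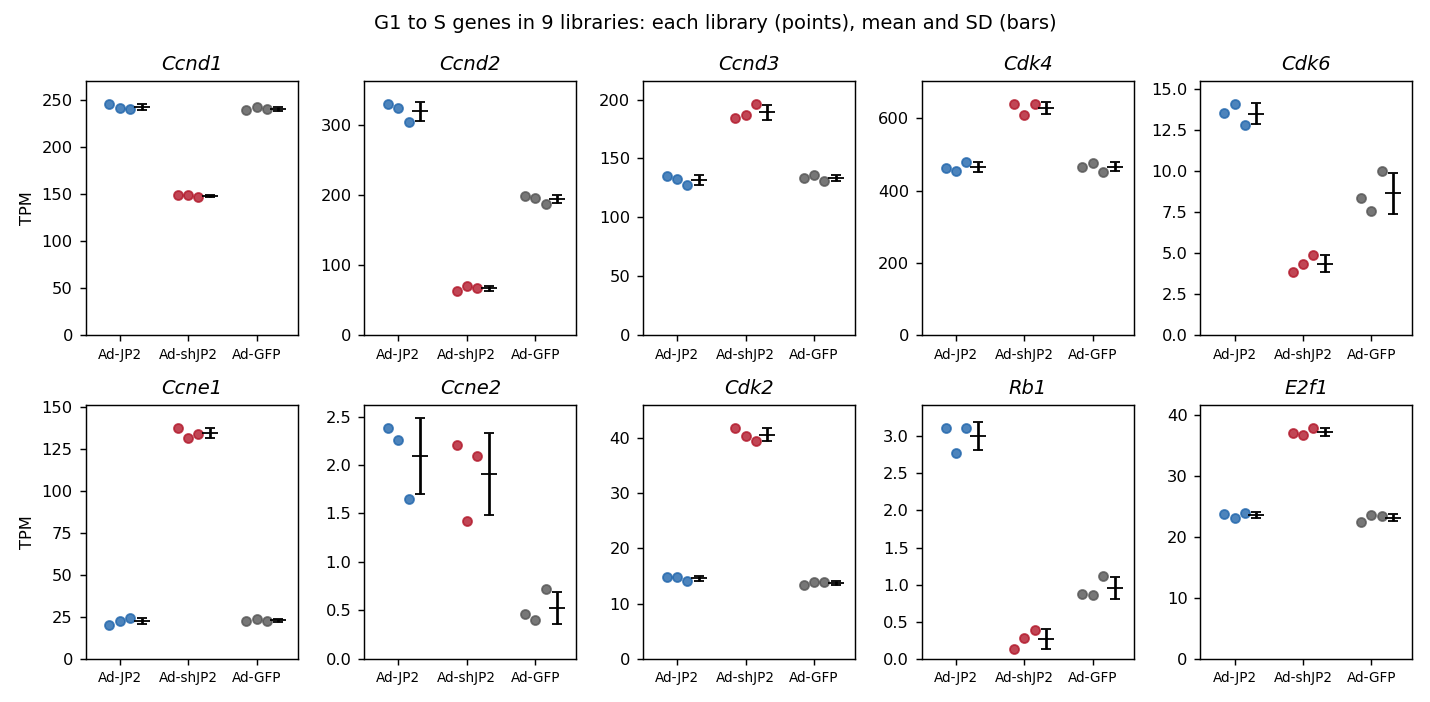
TPM of each G1 to S gene in every library, by virus group, with the mean and SD as bars beside the 3 points; each panel has its own axis from 0. Ccne1, Cdk2, E2f1, Ccnd3 and Cdk4 stand apart in the 3 Ad-shJP2 libraries, while Ccnd2, Cdk6 and Rb1 are highest in Ad-JP2 and lowest in Ad-shJP2.

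Ccne1 encodes cyclin E1, the activator of CDK2 at the start of S phase. It was at 20.4, 22.7 and 24.2 TPM in the Ad-JP2 libraries, 137, 131 and 134 TPM in the Ad-shJP2 libraries and 22.3, 23.9 and 22.5 TPM in the Ad-GFP libraries. The 3 Ad-shJP2 libraries lay far above the other 6, which overlapped each other. Ccne1 rose 5.87-fold with Ad-shJP2 (log2 fold change 2.50, SE 0.06, limma adjusted p = 5.26e-09), the largest change of the 10 genes in that comparison. Its difference between Ad-JP2 and Ad-GFP was -0.03 on the log2(TPM + 1) scale, with a 95% interval of -0.17 to 0.10, and did not pass the test (limma adjusted p = 0.816). In these bulk samples, a change in the share of cells of one type and a change in RNA per cell cannot be told apart.

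Ccne2, the second E cyclin, was at a much lower level and followed another pattern. It had 2.38, 2.26 and 1.65 TPM in Ad-JP2, 2.21, 1.43 and 2.09 TPM in Ad-shJP2 and 0.462, 0.400 and 0.717 TPM in Ad-GFP. Both JP2-directed viruses were above the control in every library and overlapped each other. Ccne2 rose 3.98-fold with Ad-JP2 (log2 fold change 1.02, limma adjusted p = 0.00165) and 3.63-fold with Ad-shJP2 (0.93, limma adjusted p = 0.000623). The difference between Ad-JP2 and Ad-shJP2 was 0.09, with an interval of -0.25 to 0.43, and did not pass the test (limma adjusted p = 0.614). These values rest on an estimated 10 to 58 reads per library, and the gene reached 1 TPM only in the Ad-JP2 and Ad-shJP2 libraries, so it passed the filter on low values through them.

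Cyclin E1 made up 91.4% ± 2.08 of cyclin E TPM in Ad-JP2, 98.6% ± 0.281 in Ad-shJP2 and 97.7% ± 0.749 in Ad-GFP (SD, n = 3 each). The difference from Ad-GFP was -6.38 percentage points in Ad-JP2 and 0.859 points in Ad-shJP2, the second being 0.441 points without Ad-GFP replicate 3. Each of these differences had an exact permutation p of 0.1 (two-sided), the smallest that 3 against 3 libraries allow, so no share could reach 0.05.

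Cdk2, the kinase partner of the E cyclins, had 14.8, 14.8 and 14.1 TPM in Ad-JP2, 41.8, 40.3 and 39.5 TPM in Ad-shJP2 and 13.3, 14.0 and 13.9 TPM in Ad-GFP. As for Ccne1, the Ad-shJP2 libraries stood alone. Cdk2 rose 2.95-fold with Ad-shJP2 (log2 fold change 1.49, SE 0.04, limma adjusted p = 1.63e-08). With Ad-JP2 the libraries lay just above those of Ad-GFP without overlap, yet the difference of 0.08 (interval -0.02 to 0.18) did not pass the test (limma adjusted p = 0.337). Values did not overlap between Ad-JP2 and Ad-GFP for 5 of the 10 genes, against 32.2% of all genes tested.

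E2f1, an activating E2F, had 23.8, 23.0 and 23.8 TPM in Ad-JP2, 36.9, 36.7 and 37.8 TPM in Ad-shJP2 and 22.5, 23.6 and 23.4 TPM in Ad-GFP. It rose 1.61-fold with Ad-shJP2 (log2 fold change 0.66, SE 0.04, limma adjusted p = 8.39e-07). The difference of 0.02 between Ad-JP2 and Ad-GFP had an interval of -0.06 to 0.11 and did not pass the test.

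Rb1 encodes the retinoblastoma protein, the brake that G1 kinases release. It had 3.11, 2.78 and 3.11 TPM in Ad-JP2, 0.128, 0.286 and 0.387 TPM in Ad-shJP2 and 0.868, 0.862 and 1.12 TPM in Ad-GFP. The 3 groups did not overlap, with Ad-JP2 highest and Ad-shJP2 lowest. Rb1 rose 3.16-fold with Ad-JP2 (log2 fold change 1.04, SE 0.11, limma adjusted p = 0.000276) and was 3.56-fold lower with Ad-shJP2 (-0.62, SE 0.11, limma adjusted p = 0.00115). The log2 values understate these ratios because Rb1 lies near the pseudocount of 1 TPM, and with a pseudocount of 0.1 TPM they were 1.57 and -1.58. The depth behind Rb1 was an estimated 209, 171 and 218 reads in Ad-JP2, 5, 17 and 23 reads in Ad-shJP2 and 68, 60 and 82 reads in Ad-GFP, and it passed the filter through the Ad-JP2 libraries and 1 Ad-GFP library.

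**Figure D2:**
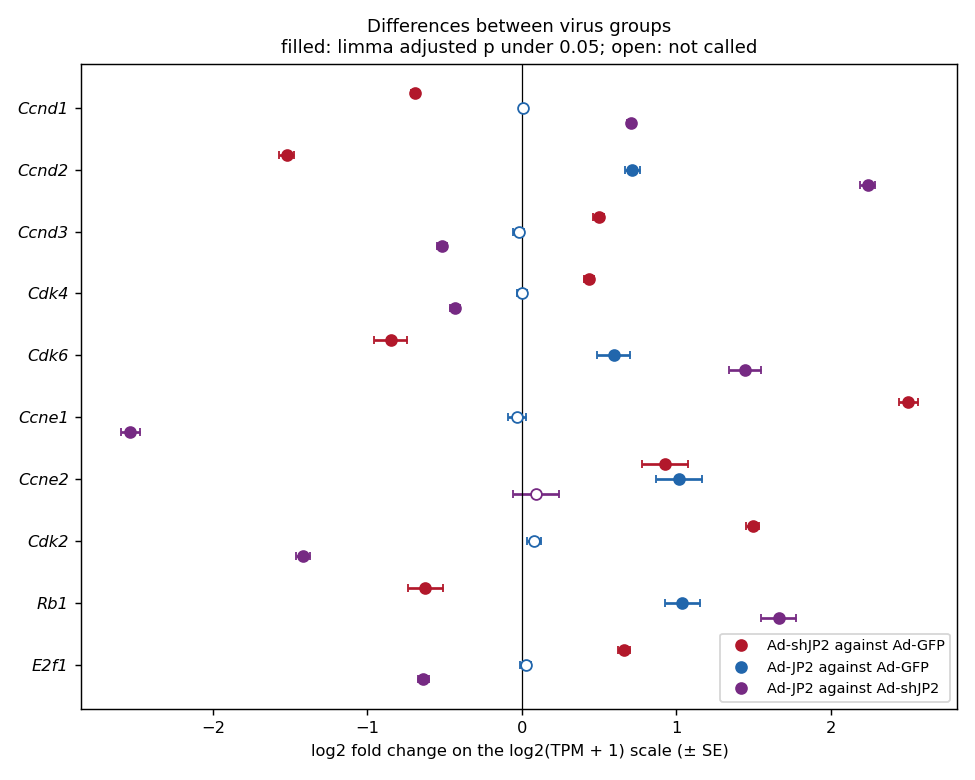
Log2 fold change of each gene on the log2(TPM + 1) scale, with its SE, in the 3 comparisons; filled points passed limma's adjusted p of 0.05. Ccne1 and Cdk2 have the largest rises with Ad-shJP2, and Ccnd2, Cdk6 and Rb1 lie on opposite sides of 0 with the Ad-JP2 and Ad-shJP2 viruses.

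The D cyclins link growth signals to the cycle, and each of the 3 behaved differently. Ccnd1 had 246, 241 and 239.9 TPM in Ad-JP2, 149, 149 and 147 TPM in Ad-shJP2 and 239, 243 and 240.0 TPM in Ad-GFP. It was 1.62-fold lower with Ad-shJP2 (log2 fold change -0.69, SE 0.02, limma adjusted p = 1.82e-08), and Ad-JP2 overlapped Ad-GFP (0.01, interval -0.04 to 0.06, limma adjusted p = 0.836).

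Ccnd2 had 331, 326 and 305 TPM in Ad-JP2, 63.1, 70.4 and 67.8 TPM in Ad-shJP2 and 199, 196 and 188 TPM in Ad-GFP. The 3 groups were apart in every library. Ccnd2 rose 1.65-fold with Ad-JP2 (log2 fold change 0.72, SE 0.05, limma adjusted p = 1.85e-05) and fell 2.90-fold with Ad-shJP2 (-1.52, limma adjusted p = 1.87e-08).

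Ccnd3 moved the other way from the other D cyclins with Ad-shJP2. It had 135, 133 and 127 TPM in Ad-JP2, 184, 187 and 196 TPM in Ad-shJP2 and 134, 136 and 131 TPM in Ad-GFP. It rose 1.42-fold with Ad-shJP2 (log2 fold change 0.50, SE 0.03, limma adjusted p = 2.33e-06), while Ad-JP2 overlapped Ad-GFP (-0.02, interval -0.10 to 0.06, limma adjusted p = 0.786).

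The composition of cyclin D RNA therefore differed in every group. Cyclin D1 made up 34.9% ± 0.686 of it in Ad-JP2, 36.7% ± 0.917 in Ad-shJP2 and 42.3% ± 0.567 in Ad-GFP (SD, n = 3 each). Cyclin D2 made up 46.1% ± 0.680 in Ad-JP2, 16.6% ± 0.704 in Ad-shJP2 and 34.2% ± 0.603 in Ad-GFP, and cyclin D3 made up 19.0% in Ad-JP2, 46.7% in Ad-shJP2 and 23.5% in Ad-GFP. By uncorrected TPM the leading D cyclin was thus D2 in Ad-JP2, D3 in Ad-shJP2 and D1 in Ad-GFP. The leading gene's values did not overlap the next in any of the groups. After the correction for GC content and transcript length, Ccnd3 was at 0.25 and Ccnd1 at -0.63 on the log2 scale with Ad-shJP2. Without it they were at 0.50 and -0.69. Whether D3 still led D1 after that correction was not tested. The D1 share differed from that in Ad-GFP by -7.40 points in Ad-JP2 and by -5.63 points in Ad-shJP2, each with an exact permutation p of 0.1. Summed cyclin D was 694 ± 20.1 TPM in Ad-JP2, 404.5 ± 7.49 TPM in Ad-shJP2 and 569 ± 8.29 TPM in Ad-GFP (SD, n = 3 each). For each 100 TPM of cyclin D there were 3.54 ± 0.323 TPM of cyclin E in Ad-JP2, 33.7 ± 1.36 in Ad-shJP2 and 4.12 ± 0.124 in Ad-GFP (SD, n = 3 each).

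**Figure D3:**
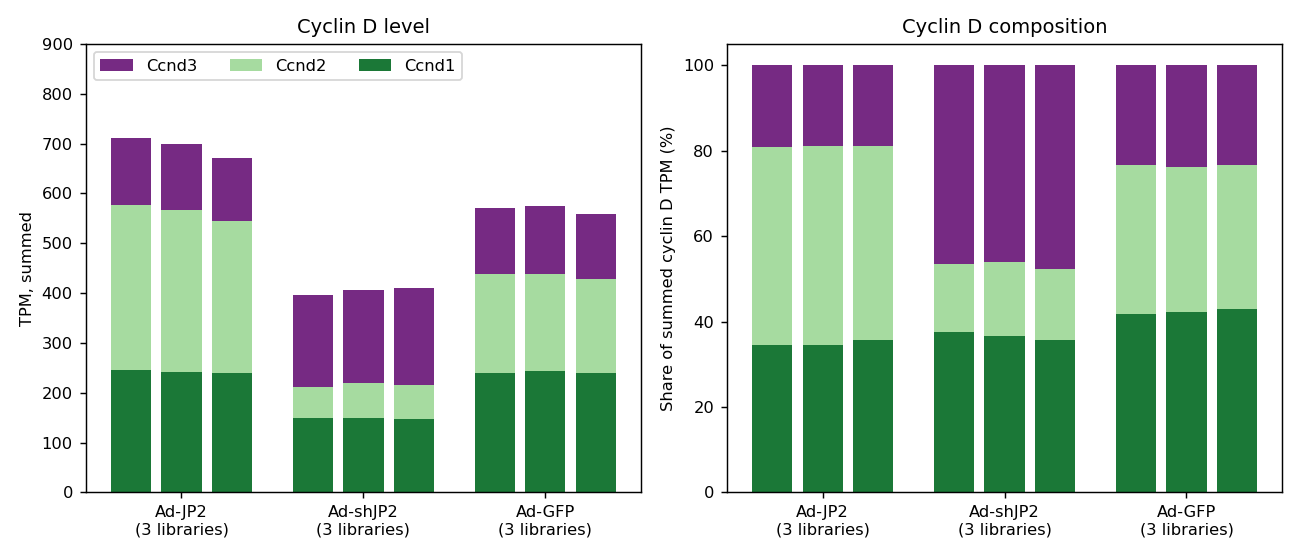
Summed TPM of the 3 D cyclin genes in each library (left) and the share of each gene in that sum in percent (right), with 1 bar per library. Cyclin D2 is the largest share in the 3 Ad-JP2 libraries, cyclin D3 in the 3 Ad-shJP2 libraries and cyclin D1 in the 3 Ad-GFP libraries. The TPM are not corrected for GC content.

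Cdk4 and Cdk6 are the kinases of the D cyclins, and Cdk4 was the most abundant of the 10 genes in every group. Cdk4 had 464, 453 and 481 TPM in Ad-JP2, 639, 609 and 639.6 TPM in Ad-shJP2 and 466, 478 and 453 TPM in Ad-GFP. It rose 1.35-fold with Ad-shJP2 (log2 fold change 0.43, SE 0.03, limma adjusted p = 3.55e-06), and with Ad-JP2 it differed by 0.000374 with an interval of -0.07 to 0.07. Cdk6 had 13.6, 14.1 and 12.8 TPM in Ad-JP2, 3.84, 4.32 and 4.87 TPM in Ad-shJP2 and 8.36, 7.56 and 10.0 TPM in Ad-GFP. Cdk6 thus had the same order of groups as Ccnd2 and Rb1. It rose 1.56-fold with Ad-JP2 (log2 fold change 0.60, SE 0.11, limma adjusted p = 0.00453) and was 1.99-fold lower with Ad-shJP2 (-0.85, SE 0.11, limma adjusted p = 0.000111). Cdk6 was 2.82% ± 0.207 of summed Cdk4 and Cdk6 TPM in Ad-JP2, 0.686% ± 0.080 in Ad-shJP2 and 1.83% ± 0.308 in Ad-GFP (SD, n = 3 each), with an exact permutation p of 0.1 in each comparison.

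Set in order of uncorrected mean TPM, Ad-JP2 ran from Cdk4 through Ccnd2, Ccnd1, Ccnd3, E2f1, Ccne1, Cdk2, Cdk6 and Rb1 to Ccne2. Ad-shJP2 ran from Cdk4 through Ccnd3, Ccnd1, Ccne1, Ccnd2, Cdk2, E2f1, Cdk6 and Ccne2 to Rb1, and Ad-GFP from Cdk4 through Ccnd1, Ccnd2, Ccnd3, E2f1, Ccne1, Cdk2, Cdk6 and Rb1 to Ccne2. Neighbours whose library values overlapped were E2f1 and Ccne1 (Ad-JP2 and Ad-GFP), and Cdk2 and Cdk6 in Ad-JP2. Ccne1 stood above Ccnd2 only in Ad-shJP2, where the lowest Ccne1 library had 131 TPM and the highest Ccnd2 library had 70.4 TPM.

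Set directly against the libraries labelled Ad-shJP2, Ad-JP2 had 4 of the 10 genes higher and 5 lower, where 64.4% of all genes tested were called, 40.3% higher and 24.1% lower (5731 and 3421 genes, against 4026 and 5570 after quantile normalization). Values did not overlap for 9 of the 10, against 67.1% of all genes tested. On the log2(TPM + 1) scale the largest differences were Ccne1, 5.99-fold lower in Ad-JP2 (-2.53, limma adjusted p = 2.21e-09), and Ccnd2, 4.77-fold higher (2.24, limma adjusted p = 1.19e-09). Rb1 was 11.2-fold higher in Ad-JP2 by mean TPM (log2 fold change 1.66, limma adjusted p = 1.39e-06), a ratio that rests on 5 to 23 reads in the Ad-shJP2 libraries. Cdk6 was 3.11-fold higher in Ad-JP2 (1.44), and Cdk2 was 2.78-fold lower. The 3 comparisons share libraries, so they are not independent of each other. Of the genes called against Ad-GFP, 3 were called in opposite directions with the Ad-JP2 and Ad-shJP2 viruses (Ccnd2, Cdk6 and Rb1), 1 in the same direction (Ccne2) and 6 with Ad-shJP2 alone.

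Changes over all genes moved with the GC content of the transcript, and the values of the 10 genes are given beside that. For genes under 40% GC the median log2 fold change was 0.36 with Ad-JP2 and -0.43 with Ad-shJP2, and for genes of 50 to 55% GC it was -0.02 with each, all against Ad-GFP. GC content was 36.3% for Ccne2, 41.2% for Rb1, 45.1% for Cdk6 and 47.1% for Ccnd2, the 4 genes that rose with Ad-JP2, and 48.8% to 58.3% for the other 6. After GC content and length were fitted and subtracted, Ccne1 (2.31), Cdk2 (1.47), Ccne2 (1.37), Ccnd2 (-1.18), Ccnd1 (-0.63) and E2f1 (0.51) were still called with Ad-shJP2 against Ad-GFP by limma. Rb1 was at -0.09 there, and that call was lost (limma adjusted p = 0.542). The correction was made on log2(TPM + 1), where Rb1 and Ccne2 lie near the pseudocount of 1 TPM. How well it holds for genes at that level was not tested. Ccnd3 (0.25), Cdk4 (0.14) and Cdk6 (-0.38) kept their calls at smaller sizes. With Ad-JP2, Ccnd2 (0.50), Ccne2 (0.63) and Rb1 (0.60) kept their calls, Cdk6 (0.26, limma adjusted p = 0.124) lost it, and Cdk4 (0.22, limma adjusted p = 0.00378) and Ccnd3 (0.13, limma adjusted p = 0.0278) gained one. Between Ad-JP2 and Ad-shJP2 the corrected difference of Ccne2 was called lower in Ad-JP2 (-0.75, limma adjusted p = 0.00245), and that of Cdk4 turned to 0.07 and was not called. There Ccne1 was at -2.20, Ccnd2 at 1.68, Rb1 at 0.69, Cdk6 at 0.64, E2f1 at -0.40 and Ccnd3 at -0.12, all still called by limma. The corrected values do not center on 0 over all genes. Their medians were -0.15 with Ad-shJP2 and 0.07 with Ad-JP2 against Ad-GFP, and 0.23 for Ad-JP2 against Ad-shJP2.

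**Figure D4:**
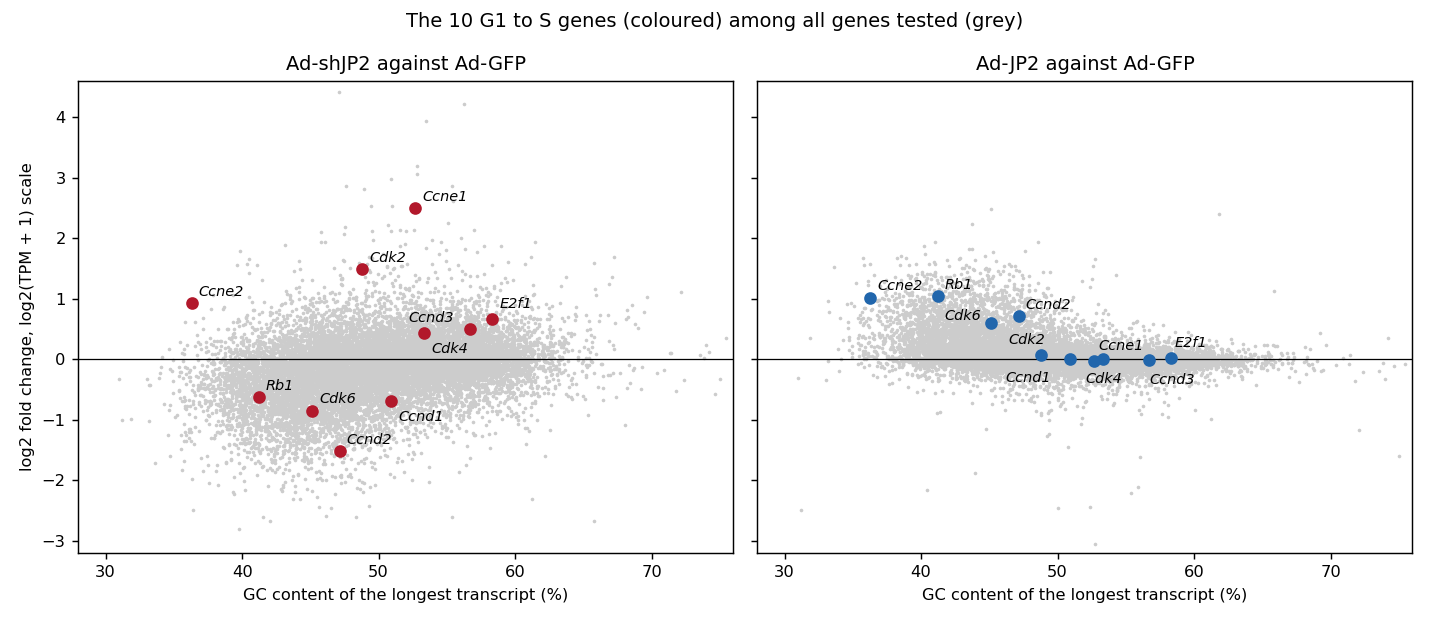
Log2 fold change against Ad-GFP of the genes tested with a known GC content (grey, 98.7% of 14215) and of the 10 G1 to S genes (coloured), against the GC content of the longest transcript in percent. Ccne1 (2.50) and Cdk2 (1.49) are the highest of the 10 with Ad-shJP2, where the largest value over all genes tested is 4.42. The 4 genes that rose with Ad-JP2 are those of lowest GC content among the 10.

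RefSeq promoter windows around the start site, in the mouse build GRCm38.p6, were held for 6 of the 10 genes. The windows were searched on both strands for E2F motifs (TTTGGCGC, TTTCCCGC, TTTGCCGC or TTTCGCGC), the E-box CACGTG and the GC box GGGCGG, which are found in 2.26%, 7.15% and 35.7% of 32851 such windows. Shown are the stretches upstream of the start sites of Ccne1 and Cdk2, the pair with the largest log2(TPM + 1) rises in Ad-shJP2. Those of the kinases Cdk4 and Cdk6, whose changes in Ad-shJP2 were opposite, are shown too. By ratio of mean TPM Ccne2 rose more than Cdk2 (3.63-fold and 2.95-fold), but no window was held for it. Capitals mark the matches.
Ccne1: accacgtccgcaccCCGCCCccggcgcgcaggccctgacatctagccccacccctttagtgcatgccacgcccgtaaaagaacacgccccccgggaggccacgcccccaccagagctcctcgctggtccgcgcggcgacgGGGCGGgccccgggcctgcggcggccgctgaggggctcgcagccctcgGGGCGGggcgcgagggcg
Cdk2: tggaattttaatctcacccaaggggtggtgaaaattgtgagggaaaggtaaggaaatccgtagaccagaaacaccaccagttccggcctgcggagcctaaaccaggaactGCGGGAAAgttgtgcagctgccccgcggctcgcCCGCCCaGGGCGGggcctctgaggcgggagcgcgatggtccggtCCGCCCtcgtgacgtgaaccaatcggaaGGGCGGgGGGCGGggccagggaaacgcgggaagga
Cdk4: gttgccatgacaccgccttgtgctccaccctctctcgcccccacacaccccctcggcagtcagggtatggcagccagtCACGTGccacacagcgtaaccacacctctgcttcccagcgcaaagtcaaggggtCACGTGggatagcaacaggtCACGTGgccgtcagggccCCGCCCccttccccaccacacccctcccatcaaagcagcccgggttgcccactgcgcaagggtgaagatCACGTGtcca
Cdk6: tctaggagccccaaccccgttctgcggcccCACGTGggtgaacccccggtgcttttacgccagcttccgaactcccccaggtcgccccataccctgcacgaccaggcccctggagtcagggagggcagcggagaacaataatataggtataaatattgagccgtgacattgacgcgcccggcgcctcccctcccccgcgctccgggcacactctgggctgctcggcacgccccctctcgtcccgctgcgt
The Ccne1 stretch is chr7:38107535-38107740 on the minus strand and held 3 GC boxes and no match to the E2F letters. The Cdk2 stretch is chr10:128705052-128705301 on the minus strand and held 1 E2F match, read as GCGGGAAA on this strand, and 5 GC boxes. The Cdk4 stretch is chr10:127063285-127063533 on the plus strand and held 4 E-boxes and 1 GC box, while the Cdk6 stretch, chr5:3343643-3343892 on the plus strand, held 1 E-box. The shares above are for whole windows, which also cover bases past the start site, while these stretches are 206 to 250 bases. Whole windows held 4 GC boxes for Ccne1, 6 for Cdk2 and 3 for Cdk4. Of windows not shown, that of E2f1 held 5 GC boxes and each window of Ccnd3 held 2. Neither gene had an E2F match or an E-box there. A match describes these letters only.

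Genes around the switch moved with Ad-shJP2 in both directions. Of 7 CDK inhibitor genes, 3 rose and 2 fell, not far from the 59.4% of all genes called. After the GC correction 2 were higher and 4 lower, with Cdkn2a (-0.44) and Cdkn2d (-0.42) newly called lower. Cdkn1a, encoding p21, averaged 573 ± 2.00 TPM in Ad-JP2, 715 ± 10.6 TPM in Ad-shJP2 and 572 ± 3.35 TPM in Ad-GFP (SD, n = 3 each), a log2 fold change of 0.32 with Ad-shJP2 that was 0.0712 after the GC correction. Cdkn1c (1.28) and Cdkn2c (0.36) rose with it, though Cdkn2c was no longer called after the GC correction (0.14, limma adjusted p = 0.0557). Cdkn2b, encoding p15, averaged 26.3 ± 1.18 TPM in Ad-JP2, 11.7 ± 0.952 TPM in Ad-shJP2 and 27.0 ± 0.925 TPM in Ad-GFP, so it fell by 1.14 on the log2 scale with Ad-shJP2, and Cdkn1b, encoding p27, fell by 1.05. With Ad-JP2, 0 of the 7 inhibitors were called by limma, and 1 had an unadjusted p under 0.05.

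Among 10 tested genes of other E2F, DP and pocket proteins, 6 rose and 4 fell with Ad-shJP2 against Ad-GFP, beside the 59.4% called over all genes, and 5 rose and 4 fell after the GC correction. E2f7 (log2 fold change 1.27) and E2f8 (1.01), the atypical repressors, rose with the dimer partner Tfdp1 (0.62). The other dimer partner Tfdp2 (-1.33), the pocket protein gene Rbl2 (-1.31) and E2f3 (-0.96) fell. With Ad-JP2, 2 of the 10 rose, near the 15% called over all genes, Rbl1 (0.43) and E2f3 (0.36), but 0 were called after quantile normalization or the GC correction. Among 11 other regulators of G1 kinases, 3 rose and 5 fell with Ad-shJP2, beside 21.8% higher and 37.7% lower over all genes. They were 5 and 4 after quantile normalization, beside 4233 and 3849 of 14215 genes. After the GC correction they were 4 and 6, beside 2546 and 5728 of 14025 genes. Cdc25a (0.94), the phosphatase that activates CDK2, Cks1b (0.64) and Skp2 (0.50, or 0.77 after the GC correction), parts of the ligase machinery that degrades p27, were higher. Fbxw7 (-0.95), the ubiquitin ligase subunit that recognises cyclin E, and Ccnh (-0.78) and Mnat1 (-0.49, or -0.25 after that correction), of the CDK-activating kinase, were lower. With Ad-JP2, 2 of the 11 rose, Fbxw7 (0.43) and Myc (0.15), near the 15% of all genes called, and 0 were called after quantile normalization. After the GC correction Fbxw7 was at 0.25 and not called (limma adjusted p = 0.0904), and Myc was at 0.28 and called.

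Genes downstream of the switch were higher in the libraries labelled Ad-shJP2. Of 25 E2F targets of DNA replication, 21 rose and 0 fell against Ad-GFP, beside 21.8% higher and 37.7% lower over all genes, with a median log2 fold change of 0.75 against -0.11 over all genes tested. The 3 with the largest rises were Orc1 (1.51) and Cdt1 (1.40), which load the replicative helicase, and Slbp (1.31), which binds histone messages. Slbp averaged 22.7 ± 2.21 TPM in Ad-JP2, 60.5 ± 7.76 TPM in Ad-shJP2 and 23.7 ± 0.540 TPM in Ad-GFP (SD, n = 3 each). Of 13 tested G2 and mitosis genes, 10 rose and 1 fell with Ad-shJP2, with a median of 0.86. The list held 14 genes, and the remaining gene, Mki67, was under 1 TPM in every library and was not tested. Ccnf (1.84), Aurka (1.38) and Ccnb1 (1.11) rose, and the gene that fell was Kif11 (-0.24), which was at 0.28 after the GC correction. The E2F targets kept at least 21 rises and 0 falls under each other scaling tried.

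With Ad-JP2, 2 of the 25 E2F targets rose and 1 fell against Ad-GFP, with a median of -0.06, beside the 15% of all genes called. Pola1 (0.72), which was not called after the GC correction (0.33, limma adjusted p = 0.0515), and Mcm4 (0.43, or 0.24 after that correction) rose, and Mcm10 (-0.45) fell. Of the 13 G2 and mitosis genes 3 rose, Top2a (1.45), Bub1 (1.09) and Kif11 (0.93), and Cdk1 fell by 0.19, beside the same 15%. After the GC correction Bub1 was at 0.73 and Kif11 at 0.52, and Cdk1 was no longer called (-0.09, limma adjusted p = 0.0706). Top2a averaged 13.6 ± 1.11 TPM in Ad-JP2, 3.41 ± 0.624 TPM in Ad-shJP2 and 4.33 ± 0.332 TPM in Ad-GFP (SD, n = 3 each). After quantile normalization 7 of the 13 were called lower with Ad-JP2, so the direction of the mitosis list there depends on the scaling.

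**Figure D5:**
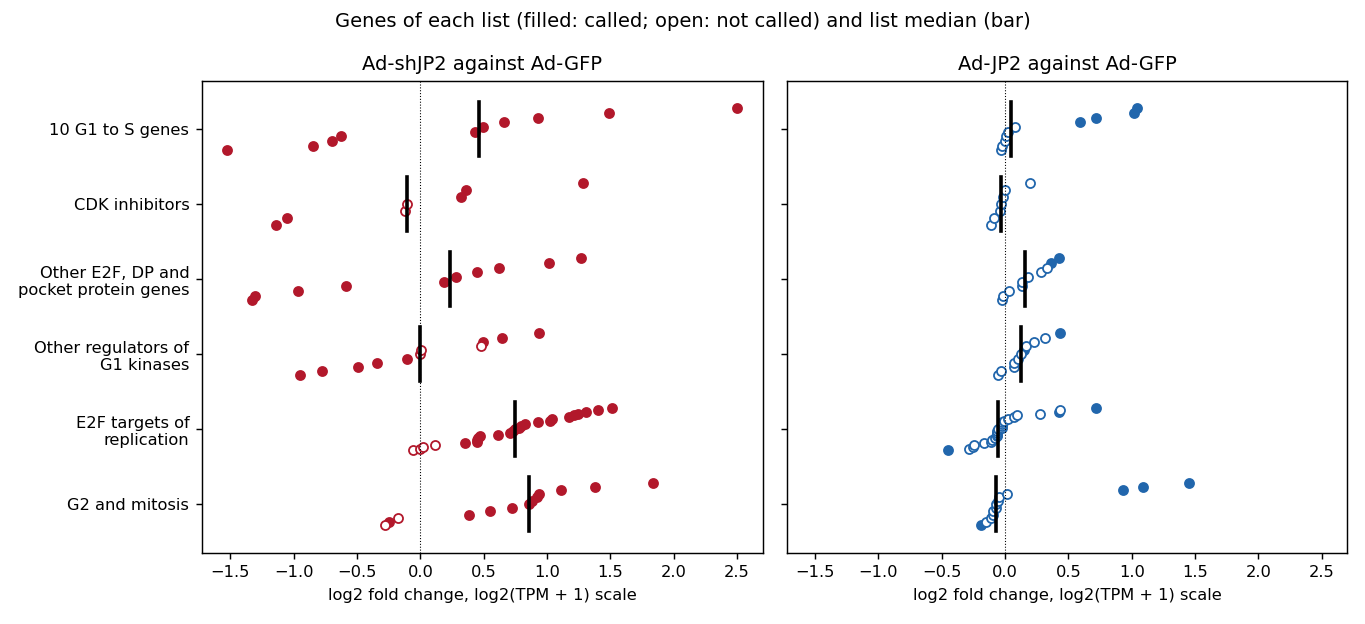
Log2 fold change against Ad-GFP of every tested gene of 6 lists, with Ad-shJP2 on the left and Ad-JP2 on the right; filled points passed limma's adjusted p of 0.05 and the bar is the list median. The E2F targets of replication and the G2 and mitosis genes lie mostly above 0 with Ad-shJP2 (medians 0.75 and 0.86) and around 0 with Ad-JP2 (medians -0.06 and -0.07).

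Cell markers and depth moved with the same groups. With Ad-shJP2, 9 of 10 fibroblast markers were lower and 1 was higher than in Ad-GFP, and of the 12 macrophage and leukocyte genes 8 were higher and 3 lower, beside 21.8% of all genes higher and 37.7% lower. After the GC correction 9 fibroblast markers were still lower, while 3 macrophage markers were higher and 5 lower. The fall was not particular to fibroblast markers. Before the correction 5 of 6 tested epicardial and mesothelial markers were lower with Ad-shJP2 and 1 was higher. All 3 tested cardiomyocyte markers, 2 of 3 pericyte and smooth muscle markers and 2 of 7 endothelial markers were lower, and 0 were higher. After it 5, 3, 2 and 1 were lower in the same order. With Ad-JP2, 4 fibroblast markers were higher and 0 lower, and 2 macrophage markers were higher and 4 lower, beside 13.4% of all genes higher and 1.64% lower. After the GC correction these counts were 1 higher and 0 lower for fibroblast markers and 6 higher and 0 lower for macrophage markers, so the direction of the macrophage markers with Ad-JP2 turned. The part of cell makeup, depth and GC content in the changes of the G1 to S genes was not tested beyond the corrected values above.

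Genes were ranked by Pearson correlation of log2(TPM + 1) over the 9 libraries, among 8588 genes averaging at least 5 TPM. The G1 to S genes themselves and numbered gene models were left out of this ranking. Those most like Ccne1 were Hmox1 (r = 0.9986), Oasl1 (0.9985), Umps (0.9982), Lig1 (0.9982) and Rgs16 (0.9982). Hmox1 averaged 367 TPM in Ad-JP2, 676 TPM in Ad-shJP2 and 376 TPM in Ad-GFP, and Oasl1 0.832, 32.5 and 0.805 TPM in the same order. Lig1, the DNA ligase of replication, averaged 14.6 TPM in Ad-JP2, 38.0 TPM in Ad-shJP2 and 14.4 TPM in Ad-GFP. Those most like Rb1 were Rhobtb3 (0.9954), Ccng1 (0.995), Eif3j2 (0.9949), Hsp90aa1 (0.9943) and Eif3a (0.994). Ccng1 averaged 207 TPM in Ad-JP2, 63.8 TPM in Ad-shJP2 and 97.3 TPM in Ad-GFP. Such correlations over 3 groups of 3 libraries mainly carry the differences between groups and are descriptions.

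Some of the 10 genes share exon sequence with a gene on the other strand. The kit keeps strand, but whether counting used it is not given in the sources used here, so reads of such partners may be mixed. In the GENCODE annotation of GRCm38, Cdk4 shares 641 bases with Tspan31, Ccnd1 1100 bases with LTO1, Ccne2 609 bases with Ints8, and Rb1 488 bases with Rcbtb2 and 408 bases with Lpar6. Tspan31 averaged 126 TPM in Ad-JP2, 130.1 TPM in Ad-shJP2 and 125 TPM in Ad-GFP and was not called in any comparison, and neither were LTO1, at 24.3 TPM in Ad-JP2, 23.9 TPM in Ad-shJP2 and 27.2 TPM in Ad-GFP, and Rcbtb2, at 31.4 TPM in Ad-JP2, 27.6 TPM in Ad-shJP2 and 29.6 TPM in Ad-GFP. Ints8 averaged 12.5 TPM in Ad-JP2, 2.55 TPM in Ad-shJP2 and 7.28 TPM in Ad-GFP, so it fell with Ad-shJP2, where Ccne2 rose, and rose 1.71-fold with Ad-JP2, where Ccne2 rose too. Lpar6 averaged 2.81 TPM in Ad-JP2, 0.752 TPM in Ad-shJP2 and 1.82 TPM in Ad-GFP, the same order of groups as Rb1. Ccnd3 shares 361 bases with Bysl, which averaged 22.3 TPM in Ad-JP2, 28.4 TPM in Ad-shJP2 and 22.7 TPM in Ad-GFP. Bysl was called higher with Ad-shJP2 against Ad-GFP (0.31, limma adjusted p = 0.000747), as Ccnd3 was. The pseudogene Ccnd3-ps averaged 4.75 TPM in Ad-JP2, 6.88 TPM in Ad-shJP2 and 5.23 TPM in Ad-GFP, and its reads may be shared with Ccnd3.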

How the data were processed

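The deposited table gives TPM per gene for 9 polyA RNA libraries, as the authors made it. DRAGEN, Salmon and DESeq2 and the build GRCm39 are listed, per the submitters' processing notes, without role, order or version. TPM are not counts, so no count test was run. Genes with at least 1 TPM in at least 3 libraries were tested (14215 of 56953, with 29601 at 0 in all), on log2(TPM + 1), with limma 3.58.1 in R 4.3.3. One model of 3 group means with a mean-variance trend gave two-sided moderated tests, adjusted by Benjamini-Hochberg over all genes tested and called under 0.05. Intervals are 95% intervals of that fit, and fold ratios are ratios of mean TPM. Shares were compared with exact permutation tests.

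Depth was estimated from the steps of low TPM times effective length, and is approximate: 94.7% of low values came out within 0.1 of a whole read for Ad-GFP replicate 3, the library whose effective lengths fit, and 38.6% to 59.7% for the others. At these depths 3 reads on 1000 bases are 0.0871 to 0.176 TPM, counting error only. GC content came from the longest GENCODE transcript of each gene (GRCm38), known for 98.7% of genes tested, and its effect with that of gene length was smoothed with mgcv 1.9.3. Promoter sequences are from RefSeq (GRCm38.p6). The procedure was also run on simulated data with independent values and few genes changed. That setting is unlike these data, so the run does not give the error rate here. The 10 genes, the other lists and the tests were chosen with earlier results of these data known. Of each other pathway list, up to 3 genes called higher and 3 called lower, by size, against Ad-GFP were named, and the 5 genes most like the gene with the largest log2(TPM + 1) change in each comparison with Ad-GFP (by ratio of mean TPM, Ccne2 and not Rb1 leads with Ad-JP2). Tspan31, LTO1, Ints8, Bysl, Rcbtb2, Lpar6 and Ccnd3-ps were named for sharing sequence. Mki67 was named because it was not tested, and Cdkn2a and Cdkn2d after their values were seen. Alternatives were another pseudocount, filter, scaling, GC and length correction, variance model, choice of libraries, a replicate block and leaving out each library.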

Additional observations from a re-analysis of the deposited data

How the results depend on the processing

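Of the log2 fold changes of the 10 genes under the alternatives, 514 kept direction and side of the threshold and 17 changed sign. Of the others, which kept their sign, 2 lost a call and 1 gained a call. All changes of sign but that of Cdk4 between Ad-JP2 and Ad-shJP2 were in differences that had not passed the test. For Ad-JP2 against Ad-GFP, the GC and length correction put Ccne1 at 0.11, Ccnd1 at -0.00879 and Ccnd3 at 0.13, median-of-ratios scaling put Ccnd1 at -0.0183, Cdk4 at -0.0281 and E2f1 at -0.00350, and quantile normalization put Cdk2 at -0.0236 and E2f1 at -0.0502. For Ad-JP2 against Ad-shJP2, Ccne2 was at -0.00196 with median-of-ratios scaling, -0.28 with quantile normalization and -0.75 with the GC and length correction, where it was called lower, and Cdk4 was at 0.0735 with that correction (limma adjusted p = 0.0974). Leaving out each library in turn, Ad-JP2 against Ad-GFP ran from -0.0850 to 0.0333 for Ccne1, -0.0390 to 0.00307 for Ccnd3 and -0.0223 to 0.0199 for Cdk4, and Ccne2 in Ad-JP2 against Ad-shJP2 ran from -0.0325 to 0.202; none of these passed the test.

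With no change of sign, the GC and length correction lost the calls of Rb1 with Ad-shJP2 (-0.09) and Cdk6 with Ad-JP2 (0.26). It gained that of Cdk4 with Ad-JP2 (0.22). With a change of sign, it lost the call of Cdk4 between Ad-JP2 and Ad-shJP2 (0.0735). It gained those of Ccnd3 with Ad-JP2 (0.13) and of Ccne2 between Ad-JP2 and Ad-shJP2 (-0.75). These are the values of that correction and the cause was not tested. With a filter of at least 5 TPM in at least 3 libraries, 2 of the 10 genes were called higher with Ad-JP2, since Ccne2 and Rb1 are then not tested. Over all genes, the count lower with Ad-JP2 against Ad-GFP was 233, against 497 with median-of-ratios scaling, 748 with quantile normalization, 470 with the GC and length correction, 158 with no filter, 100 with no variance trend and 114 to 283 leaving out each library (125 without Ad-GFP replicate 1, 114 without Ad-GFP replicate 2, 134 without Ad-GFP replicate 3 and 132 without Ad-JP2 replicate 2). With Ad-shJP2 against Ad-GFP, 3093 rose and 5353 fell, against 4149 and 4341 with median-of-ratios scaling and 4233 and 3849 with quantile normalization, and the median over all genes was -0.11, against 0.02 with quantile normalization. With Ad-JP2 against Ad-shJP2, 5731 were higher and 3421 lower, against 4026 and 5570 with quantile normalization.

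Deviations from the group means correlated at -0.113 to 0.11 between libraries with the same replicate number. Between libraries with different numbers the correlations were -0.196 to 0.155. Such correlations cannot tell whether libraries with the same number share a heart or culture, which the labels do not give. A replicate block changed no call of the 10 genes, and 3015 genes were higher and 5211 lower with Ad-shJP2 against Ad-GFP under it. Depth limits Rb1 in Ad-shJP2, at an estimated 5 to 23 reads per library.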
